A study of Mus musculus with 2 samples.

Results

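The ribosomal protein genes were taken by symbol as every row named Rpl or Rps with a number (and, for paralogs, the suffix a, l, x or y), Rplp with a number, or Rpsa, which leaves out rows named as pseudogenes (-ps). They were 84 of the 23154 genes of the count tables, 51 of the large subunit (Rpl and Rplp) and 33 of the small subunit (Rps and Rpsa). GENCODE M21 annotates 83 of them as protein coding and Rps4l as a transcribed processed pseudogene. Each ribosome joins a small subunit, which decodes the mRNA, to a large subunit, which forms the peptide bond, and each subunit needs its proteins in about equal amount. Ribosomal protein mRNAs are short and abundant, and many start with a run of pyrimidines, the 5′ terminal oligopyrimidine motif, through which growth signals acting on mTOR control their translation. Some proteins have a paralog, such as Rpl22l1 for Rpl22, that can take the same place in the ribosome.

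PK44 cells of the E10.0 mouse yolk sac (CD41-CD43-CD45-CD31+CD201+Kit+CD44+), from embryos on a C57BL/6 background with no transgene or treatment named, were picked singly and profiled by modified STRT-seq, which tags each transcript with a unique molecular identifier (UMI). The series asks whether these hemogenic endothelial cells, endothelial cells able to give rise to blood, hold both endothelial and hematopoietic potential, as such cells of the aorta-gonad-mesonephros region do. There was 1 group of 2 libraries, with 43 cells in replicate 1 and 44 in replicate 2. The labels do not say whether the libraries came from separate litters or sorts.

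Replicate 1 held 8932527 counts and replicate 2 held 12706360. Cells of replicate 1 had between 13218 and 702028 counts, and those of replicate 2 between 51620 and 956593. No cell barcode number was shared between the libraries. The genes of the positive gate were found in most cells, from 34 and 32 cells for Kit to 42 and 44 cells for Pecam1 (CD31). Of the negative gate, Ptprc (CD45) was found in 1 and 2 cells and Spn (CD43) in 5 and 4, while Itga2b (CD41) RNA was found in 23 and 33 cells.

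Start windows of those of the 8 most abundant members that the RefSeq promoter table holds and that are reported here are shown first because the pyrimidine run is the feature best known in these genes. Each window runs from 10 bases before to 20 after the start in that table (GRCm38.p6), on the strand of the gene, and capitals mark a run of pyrimidines that opens with a C at 1 of the 5 bases around the start.
Rpl41, chr10:128549149-128549178, minus strand: gggccggctcggaagtgacgacaccgagca
Rpl35, chr2:39005112-39005141, minus strand: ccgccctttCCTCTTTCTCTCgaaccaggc
Rpl13, chr8:123102340-123102369, plus strand: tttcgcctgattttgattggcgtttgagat
Rplp0, chr5:115559457-115559486, plus strand: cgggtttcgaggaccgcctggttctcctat
Rps19, the first of its 3 windows, chr7:24884582-24884611, plus strand: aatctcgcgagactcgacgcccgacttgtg
Rpl4, chr9:64173377-64173406, plus strand: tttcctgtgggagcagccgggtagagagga
Rpl13a, chr7:45128726-45128755, minus strand: cctgcgacaagaCCTCCTCCTTTCCCaggc
The run spanned 12 bases in Rpl35 and 14 in Rpl13a. No such run lay at the annotated start of Rpl41, Rpl13, Rplp0, Rps19 (in any of its 3 windows) or Rpl4, which says only that it is not in this window.

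The table held 63 of the 84 members. A run of at least 5 pyrimidines opening with C stood at the start of 21 of these 63 genes (33.3%), against 10.6% of all 27025 genes in the table. In the 300 bases of each promoter, CCGGAAG, read on both strands and the core of sites bound by ETS family factors, was present in 41.3% of the members and 9.93% of all genes. AAGATGG, the core of the YY1 motif, was present in 15.9% against 7.28%. The letters of CCGGAAG and AAGATGG can share bases where they follow each other. TATAA was about as frequent in members (28.57%) as in all genes (27.99%). The first 3 of these features were thus more frequent among the members, and the last was not.

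Ribosomal protein genes held 15.8% of all counts of replicate 1 and 13.1% of those of replicate 2, or 14.5% ± 1.90 (SD, n = 2 libraries). In replicate 1 the share per cell was 9.90% at the lowest, 15.8% at the median and 20.1% at the highest. In replicate 2 it was 6.84%, 11.9% and 18.99%. The ranges of the libraries overlapped widely, and 26 of 43 cells of replicate 1 but 10 of 44 cells of replicate 2 lay above 15%. With 2 libraries and no second group this difference was not tested. The coefficient of variation of the share across cells was 16.0% and 24.3%.

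**Figure D1:**
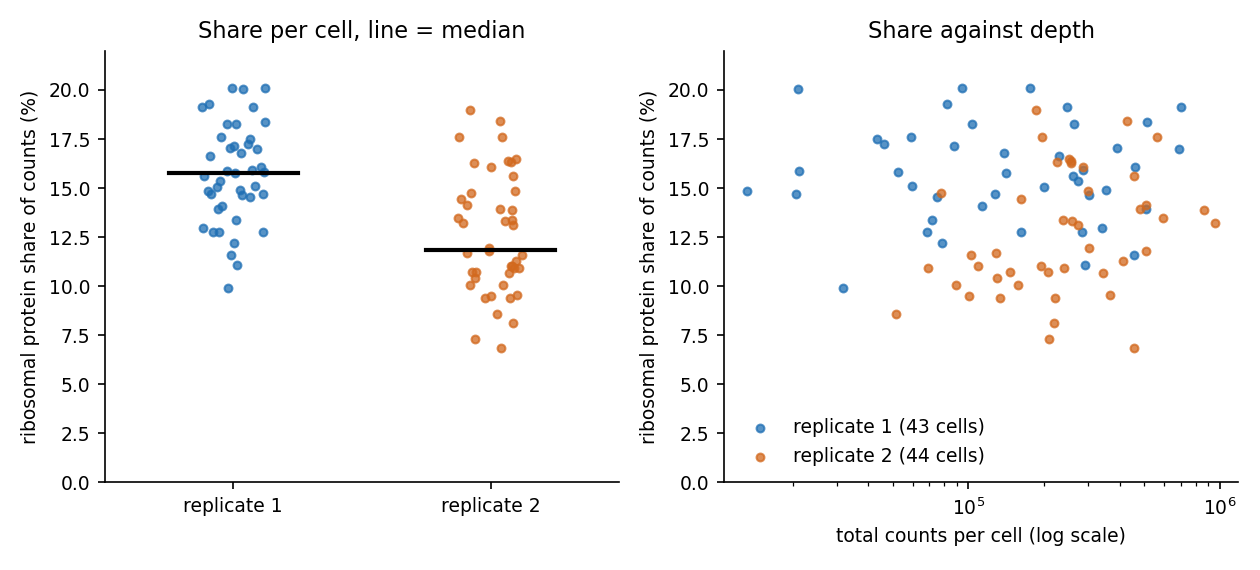
Ribosomal protein share of counts in percent for each cell of replicate 1 (43 cells, blue) and replicate 2 (44 cells, orange), with the median as a line on the left, and against the total counts of the cell on a log scale on the right. The medians are 15.8% and 11.9%, and the share has a correlation of 0.0121 and 0.311 with log2 counts.

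Depth moved little with the share in replicate 1 (Pearson r of 0.0121 with log2 counts across 43 cells) and somewhat in replicate 2 (0.311 across 44 cells). The large subunit took 9.18% and 7.61% of the counts and the small subunit 6.64% and 5.53%. The ratio of large to small subunit counts in a cell had a median of 1.42 in replicate 1 and 1.41 in replicate 2, with ranges of 1.06 to 1.72 and 1.11 to 1.52. Both subunits therefore varied less against each other than the total share did, and more clearly so in replicate 2. The coefficient of variation was 11.4% for the ratio against 16.0% for the share in replicate 1, and 8.28% against 24.3% in replicate 2. Across cells their summed CPM (a gene's counts scaled to a common total of 1e+06) correlated at 0.783 and 0.947. These correlations are across cells of 1 library each, which share their library preparation.

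Of the 100 genes with the highest mean CPM, 62 were members, and of the top 50, 34 were. A level over 100 CPM in both libraries was reached by 77 members, over 400 CPM by 75 and over 1000 CPM by 65. A count was found in every one of the 87 cells for 68 members. The 8 highest members held 18.7% and 19.6% of the ribosomal protein counts, so that no small group of genes carried the total.

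Rpl41, which encodes the shortest protein of the ribosome, was the highest, with 4642 CPM in the first library and 4379 in the second. Rpl35 stood at 4407 and 3262 CPM. Rpl13 stood at 3279 and 3665 CPM and Rpl13a at 3087 and 2353 CPM. Rpl4, a large subunit protein that reaches into the exit tunnel, had 3324 and 2330 CPM. All 5 lay among the 20 genes with the highest mean of the whole table. UMI counts are meant to count transcripts whatever their length, so levels here were not scaled by length. Divided by the length of 1 annotated transcript per gene, Rpl41 had 7975 and 7524 CPM per kilobase, the highest value. That order depends on the transcript chosen.

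Rplp0, Rplp1 and Rplp2 form the stalk of the large subunit, to which elongation factors bind, and stood at 3728, 2241 and 2346 CPM in replicate 1 and at 2792, 2053 and 1670 CPM in replicate 2. Rpl5 and Rpl11, which with the 5S rRNA form the particle that can bind Mdm2 when ribosome assembly fails, had 2733 and 1538 CPM in replicate 1 and 2300 and 1452 CPM in replicate 2. Rps19, the gene most often mutated in Diamond-Blackfan anemia, had 2850 and 3165 CPM. Rps14, whose loss is tied to the anemia of the 5q- syndrome, had 2769 and 2574 CPM. Rps6, whose protein is phosphorylated downstream of mTOR, had 1868 and 1316 CPM. Rpl38, known from mouse mutants for its part in translating Hox mRNAs, had 1985 and 1687 CPM. Rpsa, also called the laminin receptor, had 2881 and 2011 CPM.

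Between libraries, 60 of the 77 members above 100 CPM were higher in replicate 1, and 68 of the 77 differed by less than 1.5-fold. Their median log2 ratio of replicate 2 to replicate 1 was -0.24, while that of all 1689 genes above 100 CPM was -0.0049. Rps12 differed most, at 3442 CPM in replicate 1 but 1444 CPM in replicate 2, a 2.38-fold difference. It was chosen for this after its values were seen. With 1 library a side these differences have no replicate check.

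**Figure D2:**
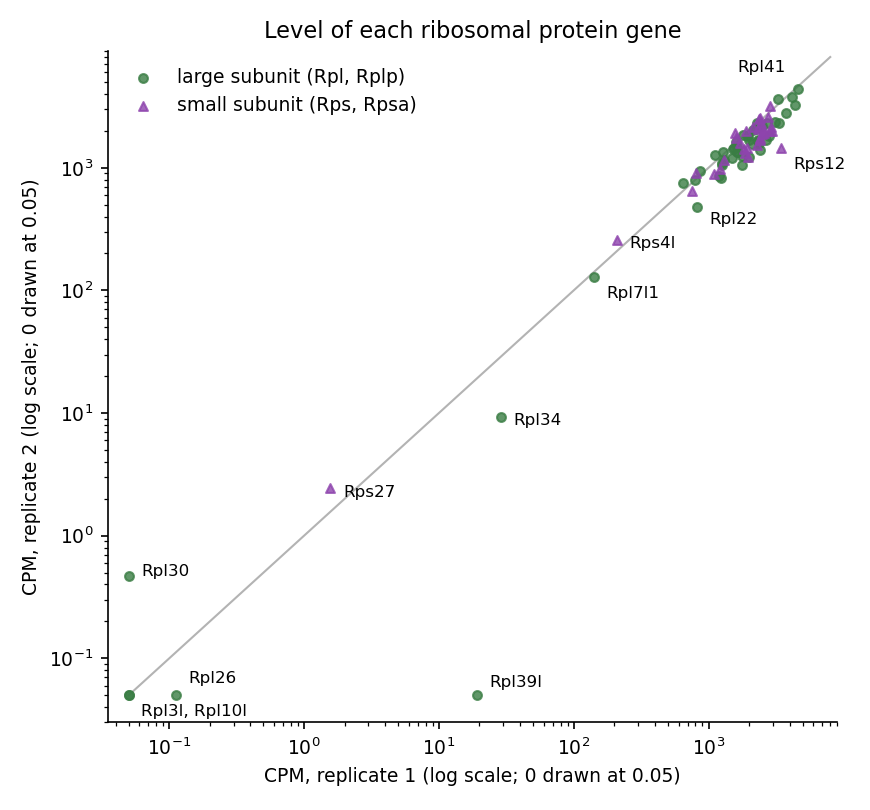
CPM of each of the 84 ribosomal protein genes in replicate 2 against replicate 1, on log scales with values of 0 drawn at 0.05, for large subunit (green circles) and small subunit (purple triangles). Most genes form a cloud near the line of equal level above 400 CPM, and 7 genes lie below 100 CPM.

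An average under 100 CPM was found for 7 members. Rpl34 had 258 and 118 counts (28.9 and 9.29 CPM), found in 11 cells of each library. Rps27, also known as metallopanstimulin 1, had 14 and 31 counts, in 3 and 8 cells. Rpl30 had 0 and 6 counts, and Rpl26 had 1 and 0. These 4 genes encode core proteins of the ribosome, for which the tables show almost no counts. Rpl39l, a paralog best known from male germ cells, had 170 and 0 counts. Rpl10l, also a testis gene, and Rpl3l, known from skeletal muscle and heart, had no count in any cell, where 3 counts would be 0.336 and 0.236 CPM.

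The authors counted uniquely mapped reads only, so members were compared with copies of their own sequence in the annotation. Among the 83 members with a protein coding transcript in GENCODE M21 (GRCm38), 46 had another gene with a stretch of at least 100 bases that matched their last 200 bases at 98% identity or more, and for 29 of these the match was exact. A copy of this kind with a row of its own in the tables was held by 4 of the 7 members under 100 CPM and by 2 of the 77 others, Rpl22l1 and Rpl7l1. Copies with or without a row were about as common in both sets, with 4 of 7 and 42 of 77. Rps4l, which has no protein coding transcript, was not searched and stands among the 77 without a copy. The 4 low members were Rpl34, Rps27, Rpl30 and Rpl26. Their copies, Rpl34-ps1, Rps27rt, Gm12191 and Gm15772, had 0 counts in both libraries. The part of unique mapping in these levels was not tested.

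The last 60 coding bases, stop codon included, are shown for these 4 genes, the low members with a close copy that has its own row. Of the 77 other members 42 also had a close copy, with or without a row. What such copies do to the counts was not tested. Capitals mark a base that differs from the copy.
Rps27, chr3:90212522-90213651, minus strand: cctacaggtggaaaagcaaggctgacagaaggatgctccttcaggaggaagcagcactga
Rpl30, chr15:34440505-34443640, minus strand: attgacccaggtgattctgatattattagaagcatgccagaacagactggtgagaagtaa
Rpl26, chr11:68901583-68906989, plus strand: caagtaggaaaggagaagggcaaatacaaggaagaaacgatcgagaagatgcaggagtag
Rpl34, chr3:130726831-130730398, minus strand: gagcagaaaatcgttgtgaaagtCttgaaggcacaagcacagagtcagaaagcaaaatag
Rpl34-ps1, chr6:71124610-71124963, plus strand: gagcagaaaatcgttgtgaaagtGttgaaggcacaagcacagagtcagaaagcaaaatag
The coordinates are those of the whole gene. All 60 bases were the same in Rps27rt, Gm12191 and Gm15772 as in Rps27, Rpl30 and Rpl26, and Rpl34-ps1 differed from Rpl34 at 1 of 60.

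Paralogs were read in 7 pairs fixed by name. Rpl22 and Rpl22l1, the pair known for its opposing roles in hematopoietic development, were the only pair in which both genes exceeded 400 CPM. Rpl22 had 7357 and 6043 counts (824 and 476 CPM) and Rpl22l1 had 5802 and 9566 counts (650 and 753 CPM). Rpl22 therefore held 55.9% of the pair in replicate 1 (exact Clopper-Pearson 95% interval 55.1% to 56.8%) and 38.7% in replicate 2 (37.9% to 39.5%). These intervals cover counting error only. The more abundant gene of the pair was thus not the same in both libraries. Rpl22l1 is 1 of the 2 abundant members with a close copy that has a row (Gm15421, at 11.98 and 11.6 CPM).

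Single cells spread over nearly the whole range. The share of Rpl22l1 in the pair ran from 1.69% to 73.1% with a median of 37.0% over the 42 cells of replicate 1 that had a count of either, and from 1.92% to 98.6% with a median of 60.3% over the 44 cells of replicate 2. Rpl22 held over 50% of the pair in 31 cells of replicate 1 and in 15 cells of replicate 2. Both genes had a count in all of these cells. The CPM of Rpl22 and Rpl22l1, as log2(CPM + 1), correlated at 0.552 across all cells of replicate 1 and at -0.0446 in replicate 2. In replicate 1 this includes 1 cell of 13218 counts with no count of either gene, which lies at 0 on both scales. The value without that cell was not computed, so the correlations are not read as a difference between the libraries.

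**Figure D3:**
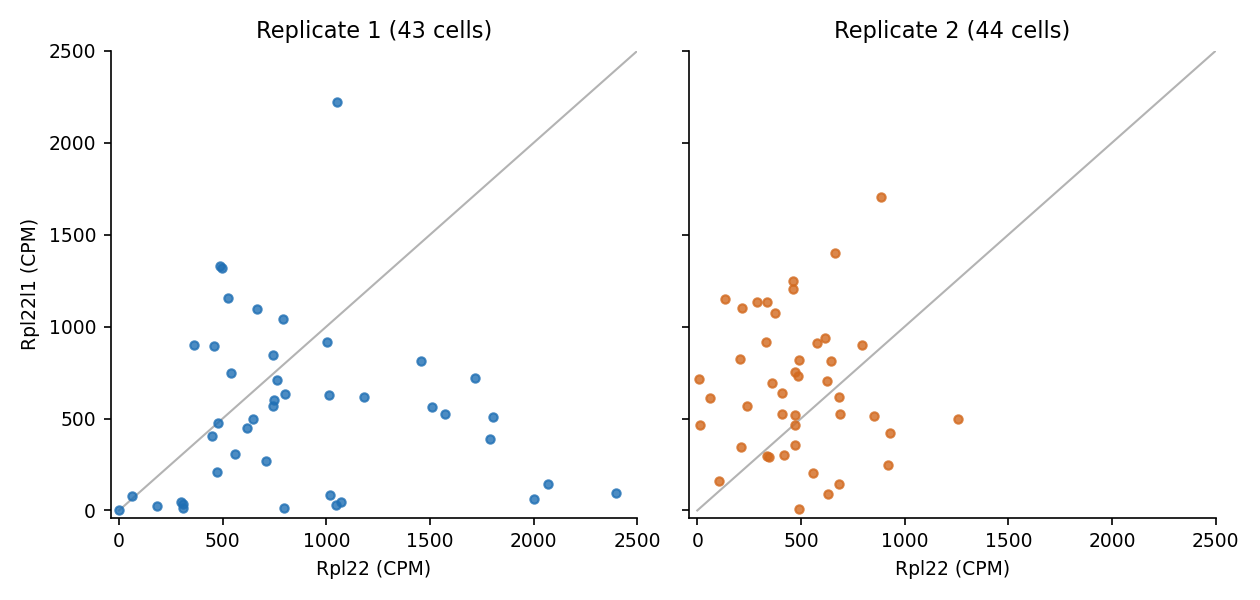
CPM of Rpl22l1 against Rpl22 in each cell of replicate 1 (left) and replicate 2 (right), with the line of equal level. In replicate 1, 31 cells lie below the line, where Rpl22 is higher, and in replicate 2, 15 do.

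In the other pairs 1 gene prevailed. Rps27l, whose gene is known as a target of p53, had 6691 and 8291 counts, so that Rps27 held 0.209% and 0.373% of that pair, a value that carries the limit of unique mapping given above. Rpl7l1, a protein of large subunit assembly whose 1 close match lies in a transcript counted in the row of another gene, Cd9 (67.1 and 129.6 CPM), held 8.00% (7.58% to 8.43%) and 8.77% (8.37% to 9.19%) of its pair with Rpl7. Rps4l held 8.38% (8.02% to 8.76%) and 14.6% (14.1% to 15.02%) of its pair with the X-linked Rps4x, and was found in 34 and 40 cells. As a processed pseudogene it was not searched for copies, so the part of unique mapping in its share was not tested. Rpl39l held 2.17% of its pair with Rpl39 in replicate 1 and none of 11931 counts in replicate 2. A single cell carried 158 of its 170 counts, and it was found in 0 of 44 cells of replicate 2, which allows a share of up to 6.82% of cells with a UMI and sets no limit on cells that express the gene below detection. Rpl3l and Rpl10l held none of their pairs, with upper bounds of at most 0.0214%.

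Coordination was read as the Pearson correlation, across the cells of a library, of a gene's log2(CPM + 1) with the log2 of the summed CPM of all members other than itself. It was computed for the 77 members and 3584 other genes with a count in at least 50% of the cells of each library. The median was 0.286 in replicate 1 and 0.503 in replicate 2 for members, and 0.0406 and 0.0964 for the other genes. The correlation exceeded 0.3 in both libraries for 36 of 77 members (46.8%), against 3.11% of all 3661 genes so measured. Here and in the Runx1 correlations below, the other genes were not matched to the members for level. The part of level in these contrasts was not tested. The pairwise correlation of members was modest, with a median of 0.107 and 0.284, and was positive for 71.5% and 94.1% of pairs. Cells of a library share its preparation, and no p was computed.

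**Figure D4:**
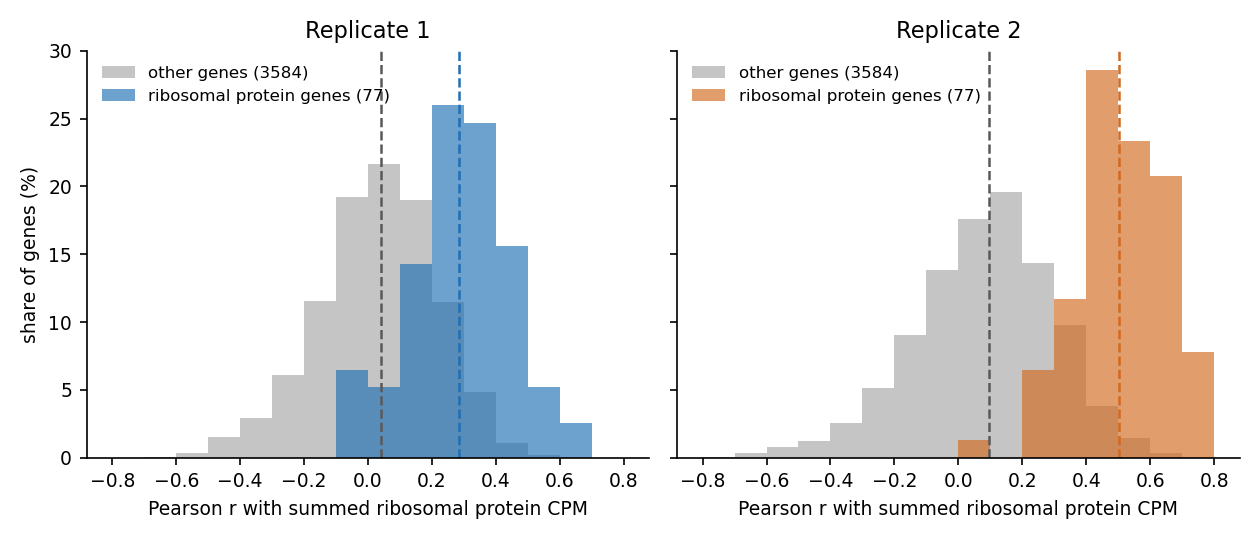
Distribution of the correlation of each gene with the summed CPM of the ribosomal protein genes (a member is left out of its own sum) for 77 members and 3584 other genes, as percent of genes in bins 0.1 wide, with dashed medians. The median of members lies at 0.286 in replicate 1 and 0.503 in replicate 2, and that of other genes at 0.0406 and 0.0964.

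Members were ordered by the lower of their values in the 2 libraries. By that order Rpl32 came first, with 0.630 and 0.715. Rps7 had 0.560 and 0.585, Rps24, a further Diamond-Blackfan anemia gene, 0.540 and 0.486, Rpl7 0.478 and 0.488, and Rpl10a 0.475 and 0.515. At the other end Rpl10, the protein that joins the large subunit last in its maturation, had -0.0927 in replicate 1 and 0.661 in replicate 2. Rpl35a (-0.0607 and 0.572), Rps15 (-0.0275 and 0.674), Rpl37 (-0.0269 and 0.533) and Rps4l (-0.0370 and 0.339) also lay near 0 in replicate 1 only. In replicate 2, Rps4l lay below the median member of 0.503 and the other 4 lay above it.

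Among the genes of known role, Rplp1 (0.472 and 0.493), Rplp2 (0.455 and 0.430) and Rpl11 (0.407 and 0.433) were above 0.4 in both libraries. Rps14 (0.177 and 0.668) and Rpl38 (0.115 and 0.560) differed most between libraries in this group.

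Of the genes that are no members, Serbp1, an mRNA binding protein that sits on idle ribosomes, came first by the same order, at 0.574 and 0.607. It was followed by Npm1, the nucleolar chaperone nucleophosmin (0.483 and 0.571), Cnbp, a nucleic acid binding protein that acts on mRNAs with a pyrimidine start (0.452 and 0.516), and the transcription factor Mycn (0.447 and 0.592). Dnajc2, a chaperone of the ribosome (0.434 and 0.594), Adgrg1, a receptor of hemogenic endothelium (0.504 and 0.434), Gm5148 (0.432 and 0.525) and Minos1, of the mitochondrial inner membrane (0.504 and 0.426), completed the first 8. All 8 lay above the median member of replicate 1 (0.286), while Adgrg1 and Minos1 lay below that of replicate 2 (0.503).

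Ribosomal proteins of mitochondria, which are made in the cytosol but serve another ribosome, had medians of 0.0910 and 0.219 over 58 genes. Ribosome biogenesis genes had 0.226 and 0.348 over 23 genes, and translation elongation genes 0.219 and 0.458 over 6. Fau, which encodes a ribosomal protein fused to a ubiquitin-like protein, and Rpl36al, neither of which the symbol rule took, stood at levels like those of members, with 2033 and 1759 CPM and 558 and 506 CPM.

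Runx1, the transcription factor that the endothelial-to-hematopoietic transition requires, had a count in 33 cells of replicate 1 and 35 of replicate 2. The ribosomal protein share correlated with log2(Runx1 CPM + 1) at 0.344 in replicate 1 and 0.631 in replicate 2. Both subunits gave like values, 0.332 and 0.639 for the large and 0.316 and 0.599 for the small. Runx1 itself correlated with depth at 0.345 and 0.420. Of the 77 members, 67 correlated above 0 with Runx1 in both libraries (87.0%), against 62.7% of all 3661 genes. The median correlation with Runx1 was close in replicate 1, at 0.149 for members and 0.130 for other genes. In replicate 2 it was 0.393 and 0.145.

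Within each library, cells above the median Runx1 CPM (Runx1-high, 21 and 22 cells) were then set against the others (Runx1-low, 22 and 22 cells). That median was 52.2 CPM in replicate 1 and 10.03 CPM in replicate 2. Runx1-low cells reached 52.2 and 8.85 CPM, and 12 and 13 of them had a Runx1 count. Runx1-high cells began at 52.7 CPM in replicate 1 and at 11.2 CPM in replicate 2. That lowest value of replicate 2 was 1 Runx1 count in a cell of 89273 counts. A Runx1-low cell of 225885 counts had 2, so near the cut the label also depends on depth. Both labels thus rank cells within a library and do not mark the same Runx1 level in both libraries. Ribosomal protein genes took 16.6% of the summed counts of Runx1-high and 14.5% of those of Runx1-low cells in replicate 1, and 14.7% against 10.9% in replicate 2. The share was thus higher by 2.07 and 3.79 percentage points, or 2.93 ± 1.21 (SD, n = 2 libraries). The single cells of both sets overlapped, with 12.7% to 20.1% against 9.90% to 20.1% in replicate 1 and 10.1% to 18.99% against 6.84% to 17.6% in replicate 2.

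Other measures moved with the same split. Runx1-high cells were deeper, with medians of 260240 against 95376 counts and 271734 against 213444 counts. After thinning each cell to 20000 counts, which left out 1 cell and split the cells anew, the shares were 16.6% against 14.9% and 14.5% against 11.4%. The 19 endothelial markers summed to 2193 against 6006 CPM and 3474 against 7858 CPM. The 9 hematopoietic markers other than Runx1 summed to 1496 against 838 CPM and 920 against 127 CPM. The 6 mesenchymal markers summed to 53.0 against 2264 CPM and 23.3 against 794 CPM, and all 3 cells with at least 100 counts of each of Col1a1, Col1a2, Col3a1 and Lum were Runx1-low. Their ribosomal protein shares were 14.7%, 15.4% and 11.02%. The part of these markers in the result was not tested. Erythroid and macrophage markers stayed below 30 CPM in sum, and of the 6 visceral endoderm markers 5 were at 0 in replicate 1 and 2 in replicate 2, with Trf carrying counts in both.

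Counts were summed over the Runx1-high and Runx1-low cells of each library and compared with edgeR's quasi-likelihood test over the 4 sums, without a block. Of the 84 members 80 passed the low-count filter, and none was called at an adjusted p of 0.05. The background was 1 of 10630 genes (0.00941%), Col1a1. At an unadjusted p under 0.05 there were 2 members, Rpl34 and Rps4l, where 5.54% of all genes passed. The sums of a replicate come from the same library. With the library as a block edgeR called 1.57% of all genes and again no member, with 14 of 80 members at an unadjusted p under 0.05, all higher in Runx1-high cells, where 8.67% of all genes passed. DESeq2 called no member either, with 3 at an unadjusted p under 0.05, against 1.30% of all genes called and 10.4% at that unadjusted p.

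No member thus passed the adjusted test, and the values have a common direction. In 57 of the 80 members tested the Runx1-high sum was above the Runx1-low sum in both libraries, while this held for 28.8% of all genes tested and for 36.5% of the 1689 genes above 100 CPM in both libraries. No member was lower in both. Members correlated across cells and are not independent, so this count in part restates the higher share given above. The median log2 ratio of Runx1-high to Runx1-low was 0.14 in replicate 1 and 0.42 in replicate 2 over these members, against 0.0019 and 0.026 over all genes. The large subunit (0.16 and 0.49 over 47 genes) and the small subunit (0.11 and 0.35 over 33) went alike. When cells with a Runx1 count were set against cells without, 56 of 79 members had an edgeR log2 fold change above 0. Of all genes tested in that fit, 5575 of 10261 did. The median there was 0.23 for members, against 0.14 for all genes.

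**Figure D5:**
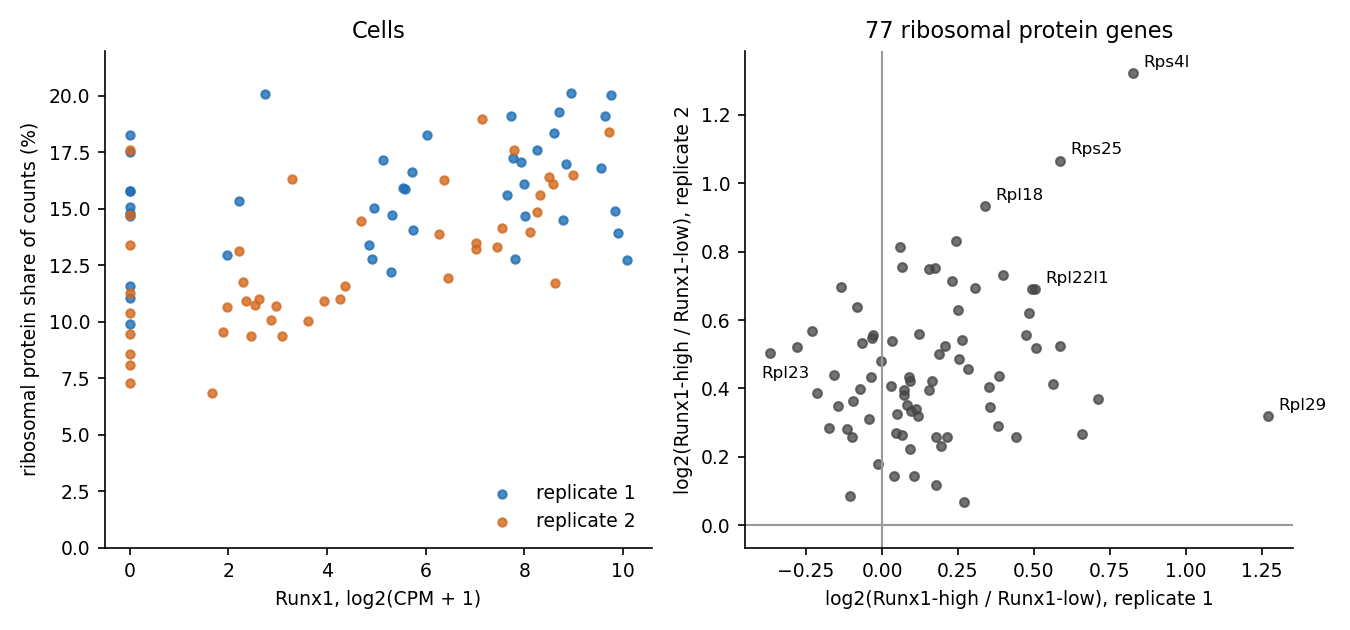
Left, ribosomal protein share of counts in percent against Runx1 as log2(CPM + 1) for each cell of replicate 1 (blue) and replicate 2 (orange). Right, log2 ratio of Runx1-high to Runx1-low sums in replicate 2 against replicate 1 for 77 members, without the rare Rpl34, Rpl39l and Rps27, where all 77 lie above 0 in replicate 2.

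The members with the largest log2 change in the same direction in both libraries are given as values, since none was called. Levels here are TMM-scaled CPM. Rpl34 rested on few counts, with 1.31 and 44.02 CPM in Runx1-low and Runx1-high cells of replicate 1 and 2.13 and 13.9 CPM in replicate 2 (log2 fold change 4.04, SE 1.63, edgeR adjusted p = 0.874). Its counts came from 3 and 8 cells of replicate 1 and from 1 and 10 cells of replicate 2.

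Rps4l stood at 140 and 248 CPM in replicate 1 and at 135 and 337 CPM in replicate 2 (log2 fold change 1.09, SE 0.43, edgeR adjusted p = 0.852). One cell carried 661 of the 1432 Runx1-high counts of replicate 1, and with each cell thinned to 20000 counts the log2 fold change of Rps4l was 0.15 (SE 0.51). Rps25, a small subunit protein used in initiation at viral internal ribosome entry sites, stood at 929 and 1395 CPM and at 578 and 1211 CPM (log2 fold change 0.79, SE 0.37, edgeR adjusted p = 0.889, or 0.105 with the block). For Rps4l and Rps25 the Runx1-high sums of both libraries were above the Runx1-low sums of both. These genes were picked for a large change in the same direction, which favors such a separation. The share of all genes that show it was not computed.

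Rpl29 stood at 421 and 1016 CPM in replicate 1 and at 678 and 846 CPM in replicate 2 (log2 fold change 0.76, SE 0.38). Rpl18 stood at 1379 and 1742 CPM and at 1038 and 1983 CPM (0.62, SE 0.33). Rpl22l1 stood at 517 and 733 CPM and at 544 and 878 CPM (0.60, SE 0.35). For these 3 as well, the lower Runx1-high sum was above the higher Runx1-low sum, with the same limit of how they were picked. Rpl22l1 made up 39.6% of its pair with Rpl22 in Runx1-low and 46.0% in Runx1-high cells of replicate 1, and 59.8% and 61.9% in replicate 2, so the difference between libraries was larger than that within either.

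The genes of known role, which were not picked by their change, had log2 fold changes of 0.11 to 0.43. The median of the 80 members tested was 0.24. Rpl38 had a log2 fold change of 0.43 (SE 0.35), Rpl11 of 0.35 (SE 0.32), and Rplp1 and Rps14 each of 0.21 (SE 0.31 for each). Rplp2 had 0.20 (SE 0.38) and Rpsa 0.19 (SE 0.36). Rps19 had 0.16 (SE 0.31), Rplp0 0.16 (SE 0.35), Rps6 0.14 (SE 0.37) and Rpl5 0.11 (SE 0.35). Each of these was smaller than 1.5 times its standard error. When cells with a Runx1 count were set against cells without, Rps6, Rps19, Rpl5 and Rplp0 turned to -0.16, -0.17, -0.062 and -0.030.

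Genes that build and serve the ribosome were read by the same fits. Of 26 ribosome biogenesis genes tested, 20 were higher in Runx1-high cells of both libraries, with a median log2 ratio of 0.91 in replicate 1 and 1.03 in replicate 2, and 1 was lower in both. Of all genes tested, 28.8% were higher in both. None was called without the block (4 at an unadjusted p under 0.05, where 5.54% of all genes passed), and 3 were called higher with it, where 1.57% of all genes were called in either direction. These were Ncl, the nucleolar protein nucleolin, with a log2 fold change of 0.88 (SE 0.25, edgeR adjusted p = 0.0314 with the block), Nhp2, of the H/ACA particle that guides pseudouridylation of rRNA, with 1.73 (SE 0.34, adjusted p = 0.000118), and Gnl3, nucleostemin, with 1.67 (SE 0.41, adjusted p = 0.00660).

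Of 6 elongation genes none was called without the block and 1 with it, Eif5a, which stood at 507 and 1167 CPM in Runx1-low and Runx1-high cells of replicate 1 and at 846 and 1842 CPM in replicate 2 (edgeR adjusted p = 0.00272 with the block). Mycn, a driver of ribosome biogenesis genes, stood at 32.5 and 157 CPM and at 9.12 and 110 CPM, a log2 fold change of 2.92 (SE 0.71, edgeR adjusted p = 0.00567) with the block, which called it, and 2.69 (SE 0.75) without, which did not. Myc had a log2 fold change of 1.53 (SE 0.78) with the block and 1.10 (SE 0.82) without and was called by neither. The proliferation gene Mki67 stood at 360 and 684 CPM and at 312 and 383 CPM and was called by neither. Of the 7 partner genes, among them Fau and Nap1l1, none was called by either fit. The members' median of 0.24 in edgeR without the block was thus smaller than the 0.88 of the biogenesis genes and larger than the -0.0066 of all genes tested. These differences between lists were not tested.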

How the data were processed

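Counts of transcripts per gene and cell were deposited for both libraries. Per the methods and the submitters' processing notes, the authors split reads by cell barcode, trimmed template switch and polyA stretches, ran HISAT2 2.1.0 for Read 1 against the UCSC mm10 transcriptome, kept reads with a unique position for HTSeq to assign to genes, and collapsed duplicates by UMI. Whether all duplicates were removed is not shown by the counts. All 87 cells in the tables were kept, 1 of them below the stated minimum of 2000 genes, and no doublet caller was run. Barcode lists hold no measurement and were not used here.

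Members and gene lists were chosen with earlier results of these data known. Cells are not replicates. Counts were summed per library over cells above the library's median Runx1 CPM and over the others (4 sums), filtered with filterByExpr, scaled by TMM and tested with edgeR 4.0.16 (quasi-likelihood, Benjamini-Hochberg adjustment over all genes tested, threshold 0.05) in R 4.3.3. A fit with library as block was run beside it: both sums of a replicate were made of cells from 1 library, which pairs them (correlation of their deviations 0.197 over 10630 genes, not independent of each other). DESeq2 1.42.0, total counts, no filter, other Runx1 splits, thinning to 20000 counts, and leaving out cells or a library were further alternatives. Standard errors are the log2 fold change over the square root of the F statistic. The tests and the coordination measure were tried on simulated counts. Exact Clopper-Pearson intervals are at 95%.

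Named were both genes of each of the 7 paralog pairs, the 8 highest and 8 lowest members, the 5 highest and 5 lowest in coordination (by the lower of the 2 libraries), the 6 with the largest log2 fold change among those moving the same way in both libraries (plus the members called, of which there were none), 10 members of known role, Runx1, Fau, Rpl36al and the 8 other genes that followed the summed members best by the same measure. Copies were found with BLAST among GENCODE M21 transcripts. A few genes that this rule names are not reported here. Protein sequences of paralogs were not analysed here. Tables were made with Python 3.11.15, numpy 2.4.6, pandas 2.3.3 and scipy 1.17.1, figures with matplotlib 3.10.9.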

Additional observations from a re-analysis of the deposited data

Results flagged for a closer look

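Symbols of ribosomal protein pseudogenes, which the rule for members left out, are carried by 7 rows, and 5 of them held more than 3 counts in both libraries. Their mean CPM over the libraries was 164 for Rpl14-ps1, 10.4 for Rpl31-ps12, 4.11 for Rps15a-ps4, 2.99 for Rps15a-ps6 and 3.36 for Rps19-ps3. Rpl14-ps1 was found in 35 and 40 cells, with 111 and 217 CPM. All 7 rows together came to 0.0845% and 0.179% of the ribosomal protein counts. With no control samples, they were noted because their counts exceed what a count of 0 allows.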

How the results depend on the processing

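No member was called under any of the 12 other fits of the Runx1 comparison. The members' median log2 fold change stayed positive in all of them, and leaving out a library gave 0.14 to 0.42. All genes called numbered 1 in the fit reported, 138 with DESeq2, 68 without the low-count filter, 167 with the replicate block, and 0 with a Runx1 count against none, with thinned cells or without the mesenchymal-gene cells. The 2 block fits added after the data were seen gave 92 with thinned cells and 150 without the mesenchymal-gene cells, and scaling on non-members, also added, moved the median to 0.26. With a Runx1 count against none, 56 of 79 members and 5575 of 10261 genes were above 0. In the fit reported, 77 of 80 members and 5283 of 10630 genes were. With a count against none the median was 0.23 for members and 0.14 for all genes, against 0.24 and -0.0066 in the fit reported. Of the members whose log2 fold change is given, Rps6 (-0.16), Rps19 (-0.17), Rpl5 (-0.062) and Rplp0 (-0.030) changed sign, and the cause was not tested. Thinning lowered the log2 fold change of Rps4l from 1.09 to 0.15 (also 0.15 with the block). As a mean over cells the Rps27 share of its pair was 2.38% and 0.620% and the Rpl7l1 share 7.31% and 9.33%. In thinned cells the Rps27 share was 0.832% and the Rpl39l share 0.541% in replicate 1, and the Rpl7l1 share 7.52% in replicate 2. The replicate block changed no call of a member. Medians of the share, coordination and the Runx1 correlation moved by less than 1 SD between libraries. Depth limits values under 3 counts per library, and 2 libraries leave differences between them without a test.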

Other observations

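The mitochondrial ribosomal protein genes, which were not among the members, were read with the same sums of Runx1-high and Runx1-low cells. Of 76 tested, 41 were higher in Runx1-high cells of both libraries and 7 lower in both, with a median log2 ratio of 0.47 and 0.48, while 28.8% of all genes tested were higher in both. None was called by edgeR without the block, with 3 at an unadjusted p under 0.05 (5.54% of all genes), and 1 was called with it (1.57% of all genes), Mrpl35, at 82.4 and 252 CPM in Runx1-low and Runx1-high cells of replicate 1 and at 66.7 and 209 CPM in replicate 2. Correlation with Runx1 was above 0 in both libraries for 48 of 58 such genes (82.8%), against 62.7% of all 3661 genes measured. Their median correlation was 0.164 in replicate 1 and 0.245 in replicate 2, against 0.130 and 0.145 for all genes that are no members.

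Rpl37rt, a row named as a copy of Rpl37, held 60.8 and 73.0 CPM in 39 and 42 cells, while Rps27rt held none.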
